A study of Mus musculus with 15 samples.

Results

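The Krüppel-like factors were followed through a time course of dexamethasone, a synthetic glucocorticoid, in 2 mouse cell lines. The 10 members were taken by name (Klf2, Klf3, Klf4, Klf5, Klf6, Klf7, Klf10, Klf12, Klf13 and Klf15), with earlier results of these data known. Klf11 and Klf16 stand in a separate list below, and Klf9 was not analysed. All 10 had a gene value among 15025 genes measured by at least 3 probesets, and all 10 were among the 9919 genes bright enough to be tested. The question put to them was which family members changed with hormone, when, and whether a mammary and a pituitary line did the same. RNA was hybridised to 15 Affymetrix mouse exon arrays, which carry 1 colour. The 3134 line was made by transforming C127, a line from a mammary adenocarcinoma of an RIII mouse. The AtT-20 line came from the pituitary of an LAF1 mouse and has the identity of corticotrophs, the anterior pituitary cells that secrete ACTH under negative feedback by glucocorticoids. The hormone groups of both lines received 100 nM dexamethasone for 2, 4 or 8 h, and the 0 h groups are described both as untreated and as vehicle treated. Before that, all cells, the 0 h groups included, had spent 48 h in medium with 10% serum stripped by charcoal and dextran. Each group held 2 arrays except AtT-20 at 8 h, which held 1. Each line is a single line in culture, and there was no array of cells kept without hormone for 2, 4 or 8 h, so hormone and time in culture cannot be told apart. The labels do not say that replicate arrays came from separate cultures, so the p-values rest on array-to-array spread that could be technical alone.

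Krüppel-like factors are transcription factors with 3 zinc fingers at the carboxyl end that bind GC-rich boxes and CACCC boxes, and the family differs mainly in the domains before the fingers. Klf3 and Klf12 recruit the corepressor CtBP, and Klf10 and Klf13 recruit the Sin3A corepressor. Klf2, Klf4, Klf5, Klf6 and Klf7 carry activation domains: Klf2 is known for endothelial responses to flow and T cell quiescence, Klf4 for epithelial differentiation and reprogramming, Klf5 for proliferation of epithelial progenitors, Klf6 for injury responses and Klf7 for axon growth. Klf15 is a known direct target of the glucocorticoid receptor in several tissues, and it drives genes of amino acid breakdown in liver and muscle.

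The promoters of Klf15, Klf4 and Klf2 are shown because Klf15 was higher with hormone in both lines, Klf4 was lower in 3134, and the signs of Klf2 differed. Klf2 had mean differences of opposite sign in the 2 lines, as did Klf7. The AtT-20 difference of Klf2 passed no test given below, and that in 3134 passed only some. Each is the 250 bases before the gene's annotated start in RefSeq (build GRCm38.p6), written 5′ to 3′ on the gene's strand. Capitals mark the boxes that family members bind, CACCC and GGGCGG or their reverse complements. Klf15 is at chr6:90462326-90462575 (plus strand), a window that falls inside the annotated gene span of chr6:90461043-90491803, so the start used is not that of the longest transcript. Klf4 is at chr4:55532476-55532725 (minus strand) and Klf2 at chr8:72318812-72319061 (plus strand).
Klf15: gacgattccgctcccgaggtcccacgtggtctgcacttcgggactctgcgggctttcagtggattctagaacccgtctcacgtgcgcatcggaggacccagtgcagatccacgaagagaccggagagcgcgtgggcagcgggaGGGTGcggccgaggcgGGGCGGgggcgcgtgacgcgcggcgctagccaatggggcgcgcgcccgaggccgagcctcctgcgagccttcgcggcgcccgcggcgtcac
Klf4: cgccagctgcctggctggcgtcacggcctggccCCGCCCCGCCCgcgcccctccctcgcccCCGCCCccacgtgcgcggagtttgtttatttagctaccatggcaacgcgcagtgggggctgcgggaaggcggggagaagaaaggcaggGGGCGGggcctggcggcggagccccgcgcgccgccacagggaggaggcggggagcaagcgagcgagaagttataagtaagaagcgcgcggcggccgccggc
Klf2: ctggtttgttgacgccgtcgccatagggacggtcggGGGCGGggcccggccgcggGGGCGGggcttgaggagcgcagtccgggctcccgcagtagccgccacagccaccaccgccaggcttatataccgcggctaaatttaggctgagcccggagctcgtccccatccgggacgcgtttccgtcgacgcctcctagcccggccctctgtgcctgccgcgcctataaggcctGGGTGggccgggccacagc
The Klf15 window held 1 CACCC box and 1 GGGCGG box, the Klf4 window held 0 and 4, and the Klf2 window held 1 and 2. On both strands, CACCC was found in 52.0% and GGGCGG in 32.7% of 32851 RefSeq promoters of the same length. The glucocorticoid receptor's half-site AGAACA was in 16.1% of promoters, and the full palindrome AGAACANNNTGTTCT, which contains it, in 0.00913%. Neither was in the windows of the 8 members in the promoter table (Klf2, Klf3, Klf4, Klf6, Klf7, Klf12, Klf13 and Klf15), which says only that these letters are not in these windows.

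Levels are log2 values of the deposited arrays after quantile normalization, and a gene's value is the median over its probesets, of which a gene had 13 at the median. A gene was tested if its highest group mean reached 6.59. Corticotroph markers reached that level for 6 of 6 genes in AtT-20 at 0 h and for 0 of 6 in 3134. In 3134, 2 of 8 mammary epithelial markers (Krt8 and Krt14) and 6 of 8 mesenchymal markers reached it, against 2 of 8 (Krt8 and Krt18) and 1 of 8 (Col1a1) in AtT-20, so the mammary label of 3134 rests on few epithelial transcripts. One mesenchymal marker of the 6 tested, the growth factor receptor gene Pdgfrb, fell with hormone in 3134 (mean log2 difference of −0.71, limma adjusted p = 0.0334), and its part in the members' results was not tested. The known response genes Fkbp5, which encodes a chaperone of the receptor, and Per1, a clock gene, rose in both lines: by 2.84 and 2.49 in 3134 (mean of 2, 4 and 8 h) and by 0.91 and 1.25 in AtT-20 (mean of 2 and 4 h), all with limma adjusted p of at most 0.0181. Nr3c1, the receptor gene itself, fell in 3134 (−0.69, adjusted p = 0.0181) and differed by −0.37 in AtT-20 (adjusted p = 1).

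Across the family, 2 of 10 members passed the test for the mean of 2, 4 and 8 h against 0 h in 3134: Klf15 rose and Klf4 fell. Of all genes tested, 2.42% passed in that comparison (limma, Benjamini-Hochberg adjusted p under 0.05). By time, Klf10 alone passed at 2 h (lower), Klf15 and Klf4 at 4 h, and Klf15, Klf4 and Klf7 at 8 h, beside 1.23%, 1.91% and 2.19% of all genes. In AtT-20, Klf15 passed for the mean of 2 and 4 h and at 4 h, beside 0.181% and 0.171% of all genes. No member passed at 2 h or 8 h in AtT-20 by limma, where 0.0907% and 0.121% of all genes did. An unadjusted p under 0.05 was found for 2 members at 2 h (Klf15 and Klf10) and 3 at 8 h (Klf15, Klf13 and Klf4). Of the 9919 genes tested, 237 and 303 had one. The median response of the 10 members was 0.09 in 3134 and −0.22 in AtT-20, beside −0.02 and −0.00 for all genes tested.

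Arrays of each line fell into a first and a second run of serial numbers, and arrays of the same run deviated together, so each comparison was also fitted with the run as a block. With that block, 6 members passed at 2 h in 3134, 4 at 4 h, 4 at 8 h and 5 for the mean, beside 3%, 5.19%, 7.9% and 6.55% of all genes. In AtT-20 Klf15 was the single member to pass in the blocked fit at 2, 4 and 8 h and for the mean, beside 0.323%, 0.857%, 0.444% and 0.756%. No member passed for 8 h against 2 h in 3134 by limma, beside 0.0907% of all genes. An unadjusted p under 0.05 was found for 4 (Klf3, Klf7, Klf10 and Klf15), beside 723 of the 9919 genes tested. With the block 3 members passed (Klf3, Klf7 and Klf10, all higher at 8 h), beside 2% of all genes. For the members, the p-values of both fits are given below wherever they lie on opposite sides of the threshold.

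**Figure D1:**
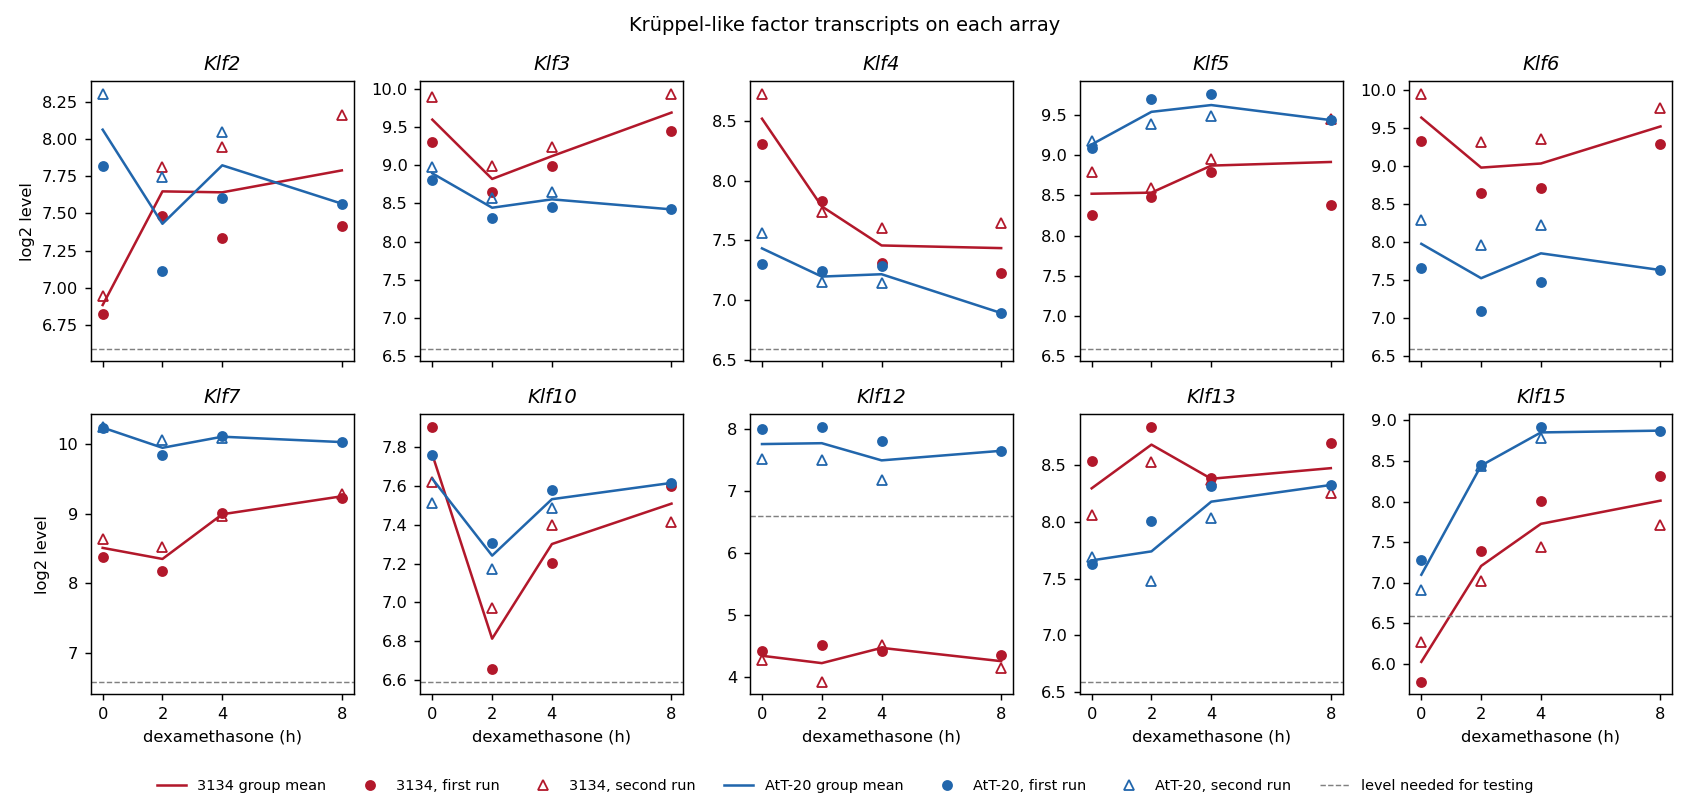
Log2 level of the 10 Krüppel-like factor transcripts on each array (vertical axes, scaled per gene) by hours of dexamethasone (horizontal axes); red is 3134 and blue AtT-20, circles are first-run and open triangles second-run arrays, lines join group means and the dashed line is the level of 6.59 needed for testing. Klf15 climbed in both lines, Klf4 fell in 3134, Klf10 had its lowest 3134 values at 2 h and Klf12 was dim in 3134 throughout.

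**Figure D2:**
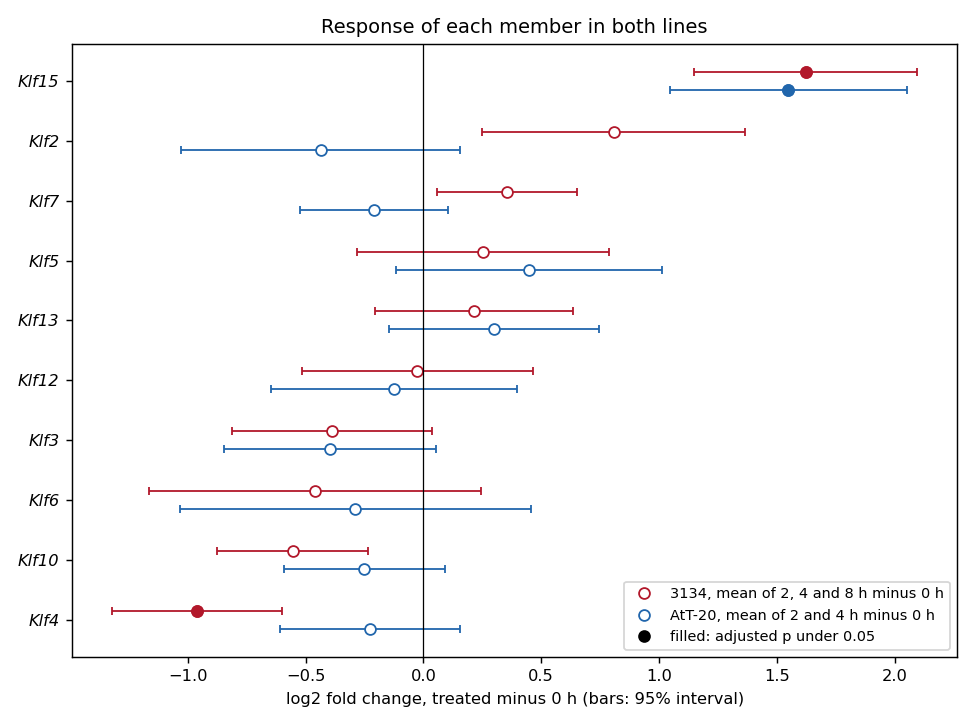
Mean log2 difference from 0 h for each member, with 3134 (red, 2, 4 and 8 h) and AtT-20 (blue, 2 and 4 h) as separate points, 95% intervals of the limma fit as bars and filled points for adjusted p under 0.05. The filled points are Klf15 in both lines (1.62 and 1.55) and Klf4 in 3134 (−0.96).

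Klf15 had the largest response of the family in both lines. In 3134 cells its levels were 5.78 and 6.27 at 0 h, 7.40 and 7.02 at 2 h, 8.01 and 7.44 at 4 h, then 8.31 and 7.71 at 8 h. Every hormone-treated 3134 array lay above both 0 h arrays, and both 0 h values were below the level needed for testing, so Klf15 was tested on the strength of its other groups. Arrays of bulk RNA do not tell fewer expressing cells from less RNA per cell. The mean over 2, 4 and 8 h was 1.62 ± 0.22 (SE) higher than at 0 h, or 3.08-fold (95% interval on the log2 scale 1.15 to 2.10, limma adjusted p = 0.00119). At 2 h the difference was 1.18 ± 0.27 (adjusted p = 0.0638, or 0.00996 with the run as a block). It reached 3.25-fold at 4 h (adjusted p = 0.00492) and 3.96-fold at 8 h (adjusted p = 0.00182). The 8 h level exceeded that of 2 h by 0.80 ± 0.27, which did not pass (adjusted p = 0.418). The mean response passed whichever array was left out. The 4 h call was lost without the first-run 3134 array at 0 h (1.44, adjusted p = 0.0742) or at 4 h (1.41, adjusted p = 0.0725).

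AtT-20 started from a higher Klf15 level, and the gene value moved by a similar amount. Among single probesets, given below, 4341179 and 4703147 had larger mean differences in AtT-20 than in 3134, and those of 4337002 were alike. In AtT-20 the gene's levels were 7.29 and 6.91 at 0 h, 8.45 and 8.44 at 2 h, 8.92 and 8.78 at 4 h, and 8.88 on the single 8 h array. All 5 hormone-treated arrays lay above both 0 h arrays. The mean over 2 and 4 h was 1.55 ± 0.23 higher than at 0 h, or 2.93-fold (95% interval 1.05 to 2.05, limma adjusted p = 0.0181), and the 4 h level was 3.37-fold higher (adjusted p = 0.0219). At 2 h the difference of 1.34 ± 0.27 had an adjusted p of 0.186, or 0.0244 with the run as a block. At 8 h, where the spread of the lone array was borrowed from the rest, it was 1.78 ± 0.33 (adjusted p = 0.0929), or 1.69 with an adjusted p of 0.0228 in the blocked fit. The AtT-20 mean lost its call without the first-run array at 0 h (1.73, adjusted p = 0.0726), 2 h (1.55, 0.0848) or 4 h (1.52, 0.0742), without the second-run array at 0 h (1.37, 0.347) or 2 h (1.55, 0.0698), and with arrays centred on their medians in place of quantile normalization (1.46, 0.0527). The 4 h call was lost without either array at 0 h (1.94 and 1.57) or at 4 h (1.69 and 1.84), with adjusted p between 0.0633 and 0.31. Within runs, the hormone-treated array exceeded its own 0 h array by 0.75 to 2.53 in 3134 (6 of 6 differences) and by 1.16 to 1.87 in AtT-20 (5 of 5).

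Klf15 was measured by 4 probesets, and the gene value hides a difference among them. Probeset 4337002 was dim in untreated 3134 cells, at a level for which the deposited values give no measure of background, so the size of its change there is not ranked against the others. Its 3134 levels were 2.13 and 2.74 at 0 h, 5.83 and 5.38 at 2 h, 4.65 and 5.41 at 4 h, then 5.49 and 5.96 at 8 h. In AtT-20 they were 4.90 and 4.27 at 0 h, 7.63 and 6.64 at 2 h, 7.80 and 7.89 at 4 h, and 7.39 at 8 h. Probeset 4341179 read 6.06 and 6.63, then 7.56 and 7.53, 8.49 and 8.18, and 8.81 and 8.40 at 0, 2, 4 and 8 h in 3134. Its AtT-20 levels were 7.79 and 7.33, then 10.09 and 9.50, 10.38 and 9.54, and 10.23. In both probesets the treated and untreated arrays of each line were fully separated.

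The 2 remaining probesets behaved differently from each other. Probeset 4703147 read 5.50 and 5.91, then 7.23 and 6.51, 7.55 and 6.70, and 7.82 and 7.02 at 0, 2, 4 and 8 h in 3134, and 6.78 and 6.49, then 8.64 and 8.08, 8.88 and 8.53, and 8.97 in AtT-20. Probeset 5058722 read 8.47 and 8.69, then 8.68 and 7.88, 8.47 and 8.28, and 8.83 and 9.11 in 3134, and 8.48 and 8.91, then 8.26 and 8.80, 8.96 and 9.04, and 8.78 in AtT-20. The treated and untreated arrays overlapped for 5058722 in both lines and for 4703147 in neither. In AtT-20, 5058722 was the highest of the probesets at 0 h and was among the middle values that set the median on every treated array. The gene value there thus rose by less than 4341179 and 4703147 did. Which exon or transcript each probeset covers was not analysed here.

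Tested singly across 147863 probesets, 2 of the 4 rose in each line. The mean differences in 3134 were 3.02 ± 0.33 for 4337002 (limma adjusted p = 0.00183), 1.82 ± 0.28 for 4341179 (0.0166), 1.43 ± 0.32 for 4703147 (0.123, or 0.0188 with the run as a block) and −0.04 ± 0.25 for 5058722 (1). In AtT-20 they were 2.90 ± 0.35 (0.0196), 2.32 ± 0.30 (0.0283), 1.89 ± 0.34 (0.156, or 0.0263 with the block) and 0.07 ± 0.26. Of all probesets, 0.470% were called higher in 3134 and 0.0494% in AtT-20, or 1.13% and 0.142% with the block. Whether the 4 probesets changed unequally was tested with limma's diffSplice, whose Simes p, adjusted over 12456 genes, was 0.00445 in 3134 and 0.00196 in AtT-20, where 0.241% and 0.434% of genes passed, or 1.45% and 4.19% with the block. In 3134 it rests in part on the dim 0 h level of 4337002. That test gives all probesets of a gene 1 spread. With a spread for each probeset, an alternative chosen after seeing the data, the adjusted p was 0.231 in 3134 (0.0215 with the block) and 0.522 in AtT-20 (0.0709 with the block), and 0 of 12456 genes passed in either line without the block. With the block 0.12% did in 3134.

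**Figure D3:**
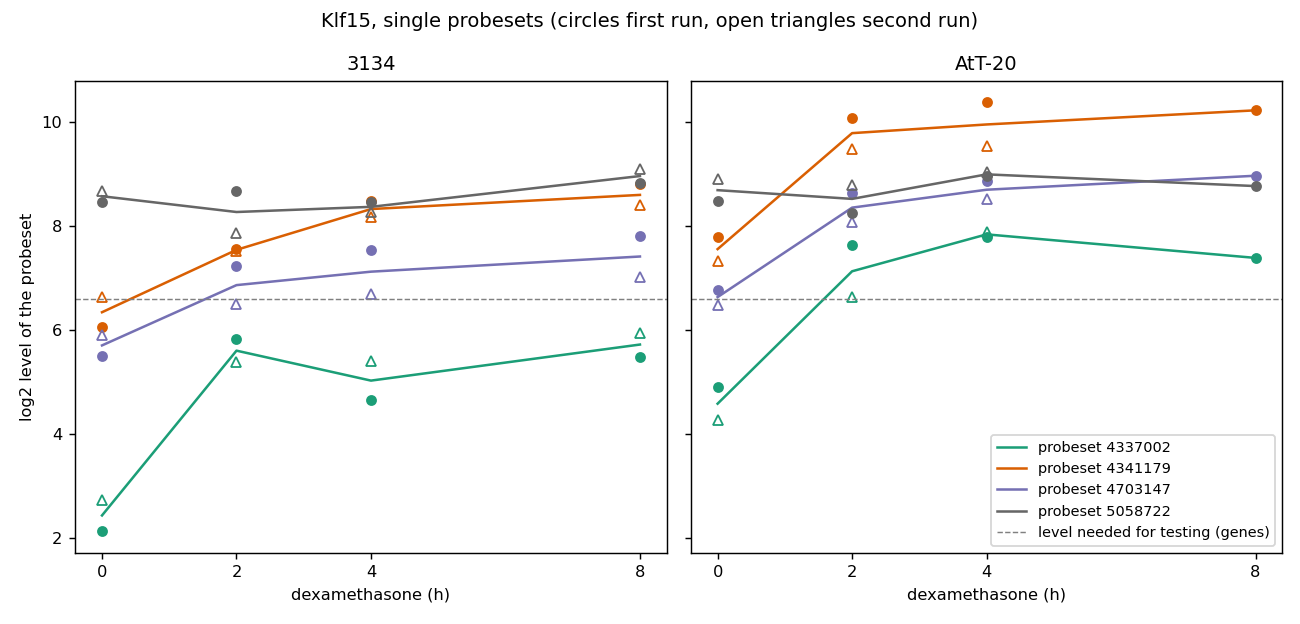
Log2 level of each of the 4 Klf15 probesets on each array (vertical axis) by hours of dexamethasone (horizontal axis), with 3134 on the left and AtT-20 on the right; circles are first-run arrays, open triangles second-run arrays and lines group means. Probesets 4337002, 4341179 and 4703147 lay higher in every treated array than at 0 h, and 5058722 overlapped its 0 h values.

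Klf4 had the lowest mean response of the members in 3134 cells, though Klf10 and Klf3 were lower at 2 h. Its levels were 8.31 and 8.73 at 0 h, 7.83 and 7.74 at 2 h, 7.31 and 7.61 at 4 h, then 7.22 and 7.65 at 8 h. All 6 treated arrays lay below both 0 h arrays, and the 4 and 8 h arrays overlapped. The mean difference was −0.96 ± 0.17, 1.95-fold lower (95% interval −1.32 to −0.60, limma adjusted p = 0.00764). By time it was −0.73 ± 0.20 at 2 h (adjusted p = 0.178, or 0.0231 with the run as a block), −1.06 ± 0.20 at 4 h (0.0173) and −1.08 ± 0.20 at 8 h (0.0159). Without the second-run 3134 array at 0 h, which had the highest Klf4 level, the mean difference was −0.75 (adjusted p = 0.234), and the 4 h and 8 h differences were −0.85 (0.231) and −0.87 (0.203). The 4 h call was also lost without either 4 h array (−0.91 with 0.201 and −1.21 with 0.0525), and the 8 h call without the first-run 8 h array (−0.87 with 0.139). Of its 9 probesets, 7 had a mean difference below 0, in a range of −1.46 to 0.37. Of the 9, 2 were called lower, or 6 with the block, where 0.0514% and 0.304% of all probesets were. The diffSplice test for unequal change among them had an adjusted p of 0.999 in 3134, or 0.000798 with the block. With a spread for each probeset it was 1, or 0.166 with the block.

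In AtT-20, where Klf4 was dimmer at the outset, the changes were small. Levels were 7.30 and 7.56 at 0 h, 7.24 and 7.15 at 2 h, 7.29 and 7.15 at 4 h, and 6.89 at 8 h. Each treated array lay below both 0 h arrays, the smallest difference within a run being −0.02. The mean difference of 2 and 4 h was −0.23 ± 0.18 (95% interval −0.61 to 0.16, adjusted p = 1), and the 8 h difference −0.54 ± 0.25 (adjusted p = 0.999). The 3134 response for the mean of 2 and 4 h differed from that of AtT-20 by −0.67 ± 0.25 (3134 minus AtT-20, 95% interval −1.21 to −0.13, adjusted p = 0.61), so a difference between the lines did not pass.

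Klf10, first described as a gene induced early by TGF-beta, dipped at 2 h in 3134. Its levels were 7.90 and 7.62 at 0 h, 6.66 and 6.97 at 2 h, 7.20 and 7.40 at 4 h, then 7.60 and 7.42 at 8 h. The 2 h arrays were the lowest of the 8, and all treated arrays lay below both 0 h arrays, the 8 h pair by little. The 2 h level was −0.95 ± 0.18 relative to 0 h, 1.93-fold lower (95% interval −1.34 to −0.56, limma adjusted p = 0.0242). The differences of −0.46 ± 0.18 at 4 h (adjusted p = 0.418) and −0.25 ± 0.18 at 8 h (0.701) did not pass. The 8 h level exceeded that of 2 h by 0.70 ± 0.18 (adjusted p = 0.232, or 0.0457 with the block). The mean over the times was −0.55 ± 0.15 (0.0923, or 0.0235 with the block). The 2 h call was lost without the first-run array at 0 h (−0.80, adjusted p = 0.315) or 2 h (−0.79, 0.286), without the second-run array at 0 h (−1.09, 0.0871) or 2 h (−1.10, 0.0593), and with no filter on dim genes (−0.95, 0.0585). AtT-20 had 7.76 and 7.51 at 0 h, 7.31 and 7.17 at 2 h, 7.58 and 7.49 at 4 h, and 7.62 at 8 h. There too the 2 h arrays were the lowest, by a mean of −0.40 ± 0.18 that did not pass (adjusted p = 1, or 0.634 with the block).

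Klf2 had mean responses of opposite sign in the 2 lines. In 3134 its levels were 6.83 and 6.94 at 0 h, 7.48 and 7.81 at 2 h, 7.34 and 7.95 at 4 h, then 7.42 and 8.16 at 8 h, so every treated array lay above both 0 h arrays. In AtT-20 they were 7.82 and 8.30 at 0 h, 7.12 and 7.75 at 2 h, 7.60 and 8.05 at 4 h, and 7.57 at 8 h, where treated and untreated arrays overlapped. Second-run arrays were the brighter ones in each group, and within a run the treated array differed from its 0 h array by 0.51 to 1.22 in 3134 (6 of 6 above 0) and by −0.71 to −0.22 in AtT-20 (5 of 5 below 0). The 3134 mean of 0.81 ± 0.26 had an adjusted p of 0.188, or 0.00186 with the run as a block. The same held at 2 h (0.76, 0.806 or 0.0174), 4 h (0.76, 0.487 or 0.0132) and 8 h (0.90, 0.235 or 0.0039). The AtT-20 mean of −0.44 ± 0.27 passed in neither fit (1 or 0.282).

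The gene value of Klf2 in 3134, 0.81, exceeds the differences of 4 of its 5 probesets tested. The diffSplice test for unequal change among them did not pass (adjusted p = 0.999, or 0.365 with the block). Their mean differences in 3134 were 0.16, 0.11, 1.05, 0.70 and 0.41, of which that of 1.05 was called (limma adjusted p = 0.0359, or 0.0112 with the block). In AtT-20 the same 5 differed by 0.28, −0.16, −0.35, −0.52 and −0.47, and none was called in either fit. With the mean over probesets as the gene value, the 3134 response was 0.42 (adjusted p = 0.191), and with bright probesets only it was 0.91 (0.0486).

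The 3134 response of Klf2 exceeded that of AtT-20 by 1.20 ± 0.38 for the mean of 2 and 4 h (95% interval 0.36 to 2.03, limma adjusted p = 0.394), or by 0.54 with the mean over probesets (0.558). With the run as a block, the adjusted p of this difference was 0.00409, and Klf2 was the only one of the 10 members to pass it, beside 2.73% of all genes. Without the block no member passed and 0.645% of all genes did. Klf2 and Klf4 had an unadjusted p under 0.05 by limma there, beside 549 of the 9919 genes tested. For Klf15 the difference between the lines in the gene value was −0.11 ± 0.33, with a 95% interval of −0.82 to 0.60. On treated AtT-20 arrays that value takes in probeset 5058722, which overlapped its 0 h levels, so it is not the difference of each probeset. The other members differed by −0.45 (Klf10), −0.34 (Klf6), −0.27 (Klf5), −0.23 (Klf3), −0.06 (Klf13), 0.13 (Klf12) and 0.37 (Klf7), with adjusted p of at least 0.978 without the block and at least 0.368 with it. With the mean over probesets as the gene value, the difference for Klf10 was −0.79 (adjusted p = 0.0445). That mean takes in all 8 Klf10 probesets, of which 7 were bright enough to be tested singly. The dim one had group means of 4.91, 2.72 and 2.90 at 0, 2 and 4 h in 3134. In AtT-20 they were 3.06, 3.25 and 3.51. The difference of −0.79 thus comes in part from a probeset at low levels, and the mean without it was not tested.

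**Figure D4:**
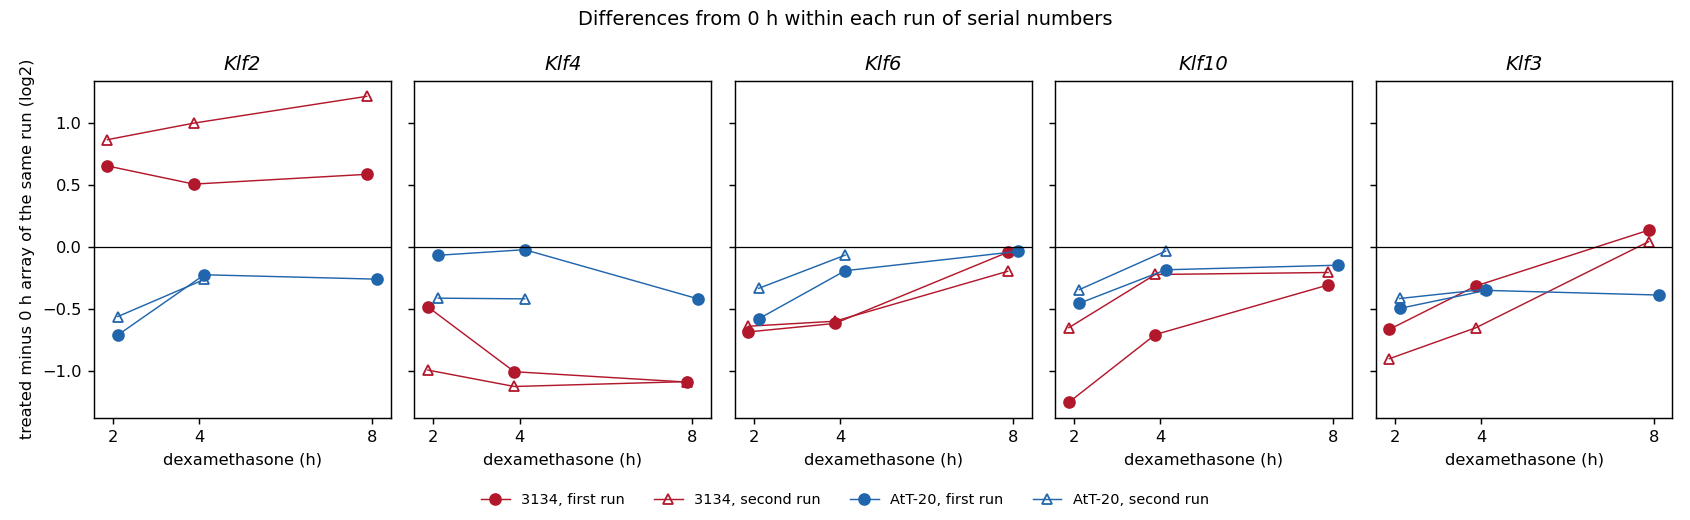
Log2 level of the treated array minus that of the 0 h array of the same run (vertical axis) by hours of dexamethasone, for Klf2, Klf4, Klf6, Klf10 and Klf3 in 3134 (red) and AtT-20 (blue); circles are the first run, open triangles the second, and points of the lines are set slightly apart. Klf2 points lie between 0.51 and 1.22 in 3134 and between −0.71 and −0.22 in AtT-20, and the Klf4 points are all below 0 in both lines.

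Differences within runs of 1 sign at all times were found in 3134 for Klf15 and Klf2 (all above 0) and for Klf10, Klf4 and Klf6 (all below 0), beside 11.7% and 12.7% of all genes. In AtT-20 Klf15 and Klf5 were above 0 and Klf2, Klf3, Klf4, Klf6, Klf7 and Klf10 below 0 in all 5 differences, beside 8.92% and 9.44% of genes. Treated and 0 h arrays did not overlap in 3134 for Klf15 and Klf2 (higher, 6.71% of all genes) and for Klf4 and Klf10 (lower, 5.91%). In AtT-20 they did not overlap for Klf15 and Klf5 (higher, 3.30%) and for Klf3, Klf4 and Klf7 (lower, 3.38%). The treated arrays of a line share its 0 h arrays, so these signs are not independent of each other.

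Klf3 and Klf6 had their lowest 3134 levels at 2 and 4 h and were back near the 0 h level at 8 h. The Klf3 levels, those of a CtBP-binding repressor, were 9.31 and 9.89 at 0 h, 8.65 and 9.0 at 2 h, 9.0 and 9.25 at 4 h, then 9.45 and 9.94 at 8 h. The Klf6 levels were 9.32 and 9.95 at 0 h, 8.64 and 9.31 at 2 h, 8.71 and 9.35 at 4 h, then 9.28 and 9.76 at 8 h. For Klf3 the arrays at 2 and 4 h lay below both 0 h arrays and those at 8 h did not. For Klf6 the runs overlapped, and each treated array lay below the 0 h array of its own run. At 2 h the differences were −0.78 ± 0.24 for Klf3 (limma adjusted p = 0.283, or 0.00426 with the run as a block) and −0.66 ± 0.39 for Klf6 (1, or 0.0119 with the block). At 4 h they were −0.48 ± 0.24 (0.665, or 0.0572) and −0.60 ± 0.39 (0.853, or 0.0145), and at 8 h 0.09 ± 0.24 and −0.12 ± 0.39, neither of which passed in either fit. The 8 h level of Klf3 exceeded that of 2 h by 0.87 ± 0.24 (0.254, or 0.00492 with the block), and that of Klf6 by 0.54 ± 0.39 (0.849, or 0.0526). The mean over the times was −0.39 ± 0.19 for Klf3 (0.638, or 0.0501 with the block) and −0.46 ± 0.32 for Klf6 (0.837, or 0.0196).

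In AtT-20, Klf3 read 8.81 and 8.99 at 0 h, 8.31 and 8.57 at 2 h, 8.46 and 8.65 at 4 h, and 8.42 at 8 h, with every treated array below both 0 h arrays. Klf6 read 7.66 and 8.29, then 7.08 and 7.96, 7.47 and 8.22, and 7.63, with overlap. The mean differences of −0.40 ± 0.21 and −0.29 ± 0.34 did not pass (adjusted p of 1 each, or 0.219 and 0.437 with the block). Single probesets had mostly the sign of the gene value: for Klf6 all 9 were below 0 in both lines, and for Klf3 10 of 11 were in 3134 and 11 of 11 in AtT-20. The gene value is a median over a gene's probesets, which share its RNA and arrays and are not replicates. Their signs, here and for the other members, carry no separate support. Over the 15 arrays with line means removed, Klf3 and Klf6 had the highest correlation among member pairs (Pearson r = 0.83). The arrays share runs and 0 h groups, so this is a description.

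Klf7, an activator known from axon outgrowth, had its highest 3134 levels at 8 h. Its levels were 8.38 and 8.64 at 0 h, 8.18 and 8.52 at 2 h, 9.01 and 8.97 at 4 h, then 9.22 and 9.28 at 8 h. Arrays at 4 and 8 h lay above both 0 h arrays and those at 2 h did not. The 8 h level was 0.74 ± 0.17 higher than at 0 h, or 1.67-fold (95% interval 0.38 to 1.10, limma adjusted p = 0.0422). At 4 h the difference was 0.48 ± 0.17 (0.301, or 0.074 with the block), and at 2 h −0.16 ± 0.17 (1). The 8 h level exceeded that of 2 h by 0.90 ± 0.17 (0.0708, or 0.00626 with the block). The 8 h call was lost when any one 3134 array at 0, 4 or 8 h or any one AtT-20 array at 0, 2 or 4 h was left out (0.61 to 0.87, adjusted p 0.0551 to 0.356). It was also lost with median-centred arrays (0.65, adjusted p = 0.135) and without normalization, on the scale as deposited (0.34, 0.992), on which all genes shifted by a median of −0.37. In AtT-20 levels were 10.22 and 10.24 at 0 h, 9.84 and 10.05 at 2 h, 10.12 and 10.09 at 4 h, and 10.02 at 8 h. All treated arrays there lay below both 0 h arrays, by a mean of −0.21 ± 0.14 that did not pass (adjusted p = 1). All 7 probesets were above 0 in 3134 and below 0 in AtT-20, with means of 0.29 to 0.50 and −0.49 to −0.09.

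Klf5, a driver of epithelial proliferation, did not pass with hormone in either line. In 3134 its levels were 8.25 and 8.79 at 0 h, 8.48 and 8.59 at 2 h, 8.79 and 8.96 at 4 h, then 8.38 and 9.46 at 8 h, with treated and untreated arrays overlapping. In AtT-20 they were 9.10 and 9.17, then 9.70 and 9.39, 9.77 and 9.48, and 9.44, all treated arrays lying above both 0 h arrays. The mean differences were 0.25 ± 0.24 in 3134 (95% interval −0.28 to 0.79, adjusted p = 0.94) and 0.45 ± 0.26 in AtT-20 (−0.12 to 1.01, adjusted p = 1), and neither passed with the block. All 9 probesets were above 0 in each line.

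Klf13, a repressor that recruits Sin3A, also did not pass. It read 8.54 and 8.06 at 0 h, 8.84 and 8.53 at 2 h, 8.39 and 8.37 at 4 h, then 8.70 and 8.25 at 8 h in 3134, against which AtT-20 had 7.63 and 7.70, then 8.01 and 7.48, 8.32 and 8.04, and 8.33. In AtT-20 the 4 and 8 h arrays lay above both 0 h arrays, and in 3134 the groups overlapped. The mean differences were 0.22 ± 0.19 in 3134 and 0.30 ± 0.20 in AtT-20, and the AtT-20 differences at 4 and 8 h were 0.52 ± 0.24 and 0.67 ± 0.29 (adjusted p of 1 and 0.999). All 7 probesets were above 0 in both lines.

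Klf12, the other CtBP-binding repressor, was dim in 3134 and moderately bright in AtT-20. Its 3134 levels were 4.41 and 4.27 at 0 h, 4.52 and 3.92 at 2 h, 4.43 and 4.51 at 4 h, then 4.36 and 4.15 at 8 h, all under the level needed for testing. AtT-20 levels were 8.00 and 7.51, then 8.03 and 7.51, 7.81 and 7.18, and 7.65. Neither line showed a separation of treated from untreated arrays, and the mean differences were −0.03 ± 0.23 in 3134 (95% interval −0.52 to 0.47) and −0.12 ± 0.24 in AtT-20 (−0.65 to 0.40). A level this low in 3134 leaves little room for a fall to be seen.

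Before hormone, the 2 lines differed in most members, as they did in most genes. At 0 h, 8 of 10 members passed between 3134 and AtT-20, 4 higher and 4 lower in 3134, where 24.3% of all genes tested were higher and 30.3% lower by limma, 54.5% in all. The count of members was not tested against the share of all genes and is not read as a result about the family. Line and every other difference between the cultures go together. The 4 higher in 3134 were Klf6 by 1.66 ± 0.39 (3.16-fold, adjusted p = 0.00348), Klf4 by 1.09 ± 0.20 (2.12-fold, 0.000654), Klf3 by 0.71 ± 0.24 (1.63-fold, 0.0246) and Klf13 by 0.64 ± 0.24 (1.55-fold, 0.0377). The 4 lower in 3134 were Klf12, with a log2 difference of −3.41 ± 0.28 (4.89e-07), Klf7, with −1.72 ± 0.17 (3.30-fold, 2.5e-06), Klf2, with −1.18 ± 0.31 (2.26-fold, 0.00702), and Klf15, with −1.07 ± 0.27 (2.10-fold, 0.00454). Klf12 entered the test only through its AtT-20 level, so it had to differ, and it is no support for the count. Its 3134 level is far under that needed for testing, so no fold is given.

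Klf5 differed by −0.61 ± 0.30 (adjusted p = 0.103, or 0.019 with the run as a block, where 9 members and 66.8% of all genes passed) and Klf10 by 0.12 ± 0.18 (95% interval −0.27 to 0.52, adjusted p = 0.59). The Klf12 probesets tested differed by −4.91 to −1.03 between 3134 and AtT-20, and the 7 of Klf7 by −2.37 to −1.63. Several of these calls rest on 1 array: that of Klf13 was lost without the first-run 0 h array of 3134 (0.39, adjusted p = 0.276) or either 0 h array of AtT-20 (0.60 with 0.125 and 0.67 with 0.0873). Klf3 was lost without the second-run 0 h array of 3134 (0.41, 0.239) or the first-run one of AtT-20 (0.62, 0.117), Klf2 without the second-run one of AtT-20 (−0.94, 0.0622), and Klf15 without the first-run one of 3134 (−0.82, 0.0532). Klf5 passed when either 3134 array at 8 h was left out (−0.61 with 0.0271 and −0.62 with 0.0268).

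**Figure D5:**
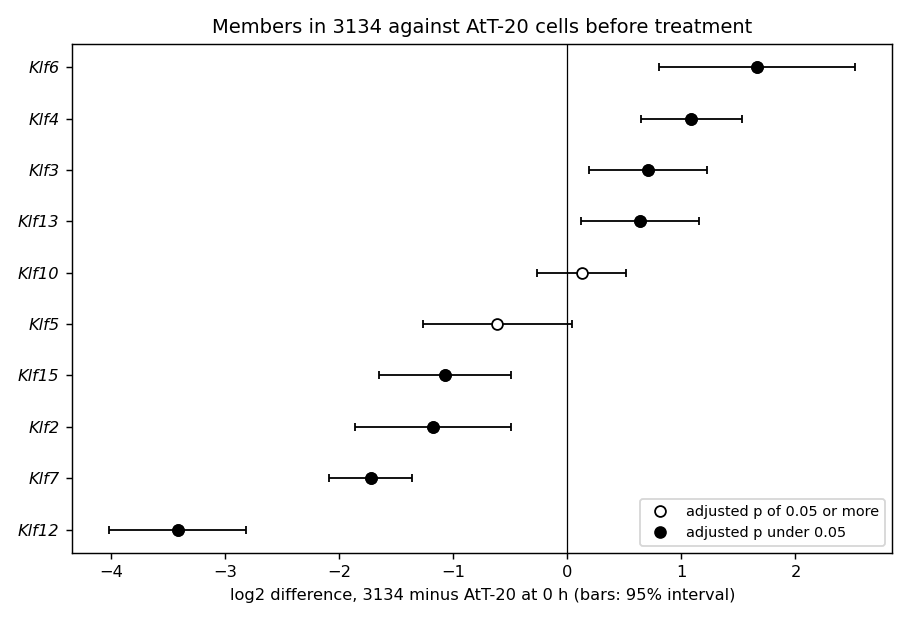
Log2 difference between 3134 and AtT-20 at 0 h for each member (3134 minus AtT-20), with 95% intervals of the limma fit and filled points for adjusted p under 0.05. Klf6, Klf4, Klf3 and Klf13 lie above 0, Klf12, Klf7, Klf2 and Klf15 below 0, and the open points are Klf5 and Klf10.

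The genes whose pattern over the 15 arrays was most like that of Klf15, after the mean of each line was taken away, were Sesn1 (Pearson r = 0.93), Pim3 (0.91), Sgk1 (0.90), Trp53inp1 (0.89) and Prr15l (0.88), out of 9918 genes compared. Sesn1 encodes a stress-responsive regulator of TOR signalling and differed by 1.92 in 3134 and 1.78 in AtT-20 (mean responses). Sgk1, a kinase gene known for its induction by corticosteroids, differed by 2.27 and 1.87. For Klf4, the member with the lowest 3134 response, they were B930095G15Rik (0.92), B4galt5 (0.89), Dmpk (0.88), Cdon (0.86) and Kif21b (0.86). Cdon, a co-receptor gene, had a mean difference of −1.13 in 3134 and 0.06 in AtT-20. Klf4 and Klf15 themselves were inversely related (r = −0.82). The 15 arrays share lines, runs and 0 h groups, and these correlations carry no test.

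Of 8 other Klf and Sp genes tested, none passed by limma in either line for the mean response, with or without the block. None had an unadjusted p under 0.05 for it. Of all genes, 2.42% passed in 3134 and 0.181% in AtT-20, or 6.55% and 0.756% with the block, so this count is no result about the list. By time, Sp7 differed by 0.72 ± 0.32 at 4 h in 3134 (limma adjusted p = 0.545, or 0.0364 with the block). Sp1 and Sp3, general GC-box factors, had mean differences of −0.17 ± 0.14 and 0.07 ± 0.15 in 3134, and Klf11 and Klf16 had −0.04 ± 0.18 and 0.00 ± 0.24. The list median was −0.01 in 3134 and −0.02 in AtT-20. Klf9 was not analysed here.

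Partners of the family were tested in the same fit. For the mean response 2.42% of all genes passed in 3134 and 0.181% in AtT-20, or 6.55% and 0.756% with the block. An unadjusted p under 0.05 was found for 900 and 339 of the 9919 genes tested. Beside these shares, a short list without a call is no result about the partners. Of 9 corepressor and coactivator genes none passed in 3134 by limma, and the acetyltransferase gene Ep300 was the 1 with an unadjusted p under 0.05 (0.55 ± 0.13, adjusted p = 0.0565, or 0.01 with the run as a block). Of 5 ubiquitin ligase genes that act on Klf proteins none passed, and Smurf1 was the 1 with an unadjusted p under 0.05 (−0.61 ± 0.19, adjusted p = 0.166, or 0.00613 with the block). Of 7 genes of the MEK5, ERK5 and MEF2 arm, which activates Klf2 and Klf4 in endothelium, none passed, and Mef2a was the 1 with an unadjusted p under 0.05 (−0.51 ± 0.14, adjusted p = 0.103, or 0.0329 with the block). None of these 3 lists had a member at an unadjusted p under 0.05 in AtT-20. The list medians were 0.05, 0.03 and −0.05 in 3134 and −0.04, 0.01 and −0.04 in AtT-20.

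Of 9 reported target genes of the family, 1 rose and 2 fell in 3134 for the mean response, beside 1.79% and 0.625% of all genes, with a list median of −0.26. Cdkn1a, the cell cycle inhibitor p21 and a known Klf4 and Klf6 target, was between 10.61 and 11.67 on treated 3134 arrays, against 9.82 and 9.88 at 0 h, a rise of 1.14 ± 0.15 (limma adjusted p = 0.0011). It was already at 11.60 in AtT-20 at 0 h, where the mean difference was −0.03 ± 0.16. Plau, which encodes urokinase, fell by 1.55 on the log2 scale in 3134 (SE 0.16, adjusted p = 0.00019) to a range of 5.98 to 6.95 in treated arrays, against 8.02 to 8.05 at 0 h. Smad7, an inhibitor of TGF-beta signalling, fell by 0.62 (SE 0.12, adjusted p = 0.0177). In AtT-20 none of the 9 passed, beside 0.181% of all genes. Smad7 had an unadjusted p under 0.05 there, as did 339 of the 9919 genes tested. The difference between the lines in response passed by limma for Cdkn1a (1.34, adjusted p = 0.0192) and Plau (−1.85, 0.00347). At 0 h Plau in 3134 exceeded Plau in AtT-20 by 3.04, and its AtT-20 level was under that needed for testing. Plau entered the test only through 3134, and a fall in AtT-20 could hardly be seen. It is thus no support for a difference between the lines.

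Among 4 adipogenic partners and targets tested, Cebpb rose and Pparg fell in 3134, beside 1.79% and 0.625% of all genes. Cebpb, an early adipogenic factor, was 0.77 ± 0.18 higher for the mean (limma adjusted p = 0.0462) and 1.19 ± 0.22 at 2 h (0.0207). Pparg, the nuclear receptor that carries out fat cell differentiation and a known partner of Klf15, was between 4.89 and 5.64 on treated 3134 arrays, against 6.71 and 6.93 at 0 h, and fell by 1.62 on the log2 scale (SE 0.17, adjusted p = 0.000239). Egr2, an early response factor, differed by −0.78 ± 0.25 (adjusted p = 0.204, or 0.0112 with the block). For the mean of 2 and 4 h none of the 4 passed in AtT-20, beside 0.181% of all genes, and none had an unadjusted p under 0.05 by limma. At single times in AtT-20, Pparg had an unadjusted p under 0.05 at 2 and 8 h (−0.50 and −0.59, limma adjusted p of 1 and 0.999). The list medians were −0.45 in 3134 and 0.00 in AtT-20. Pparg and Egr2 each reached the level needed for testing in 3134 at 0 h alone, so the filter favoured a fall there, and neither supports a count or a difference between the lines. The 3134 list median takes in both genes, so it is no support for a fall or a difference between the lines either.

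The 13 amino acid breakdown genes tested, the pathway Klf15 is known for in liver, had list medians of 0.09 in 3134 and 0.03 in AtT-20. Tat, tyrosine aminotransferase and a classical glucocorticoid target, rose in AtT-20 by 1.46 ± 0.24 for the mean of 2 and 4 h (limma adjusted p = 0.0354), with levels of 7.64 and 7.96 at 0 h, 8.64 and 9.33 at 2 h, 9.31 and 9.75 at 4 h, and 10.16 at 8 h. In 3134 it stayed between 4.45 and 5.03 on all 8 arrays. Aldh4a1, a proline breakdown enzyme gene, rose in 3134 at 8 h by 1.03 ± 0.21 (adjusted p = 0.0226), and its mean difference of 0.62 ± 0.17 had an adjusted p of 0.098, or 0.0354 with the block. None of the 13 passed for the mean in 3134 without the block, beside 2.42% of all genes. Aldh4a1 had an unadjusted p under 0.05 there, as did 900 of the 9919 genes tested. At 8 h in 3134, the branched-chain amino acid genes Bckdha (0.65, limma adjusted p = 0.353) and Bcat2 (0.53, 0.414) passed with the block alone (0.0336 and 0.0395). With the block 7.9% of all genes passed there. The other branched-chain genes Bcat1 (−0.32), Bckdhb (0.13) and Dbt (0.18) did not pass with it (0.154, 0.600 and 0.485). Gpt2 differed by −0.48 (limma unadjusted p = 0.0376, adjusted p = 0.128 with the block). Tat in AtT-20 differed by 1.19 at 2 h (0.427, or 0.00145 with the block). On the single AtT-20 array at 8 h, Hpd, a tyrosine breakdown gene, differed by 1.55 (adjusted p = 0.295, or 0.0928 with the block). Of the 2 muscle atrophy genes, Fbxo32 was tested, with 0.15 ± 0.20 in 3134 and −0.19 ± 0.21 in AtT-20.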

How the data were processed

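The authors deposited 1 log2 value a probeset for each of 15 arrays. The submitters' processing notes name RMA and Affymetrix Expression Console, with no versions. Of 228090 probesets, 207232 had 1 gene symbol in the platform annotation, 3882 had several and 16976 none, and only the first kind was used. The 16207 symbols were matched to RefSeq names, 14055 as they stood and 2111 through older names, with 41 left as given. Levels differed between the deposited columns (array medians of 7.51 to 8.14 in the first run of serial numbers and 6.76 to 7.22 in the second), so the arrays were quantile normalized. Line, time and serial number came from the sample titles. A gene's value was the median over its probesets (at least 3), and genes whose highest group mean reached the 40th percentile were tested. Since arrays number 1 or 2 a group, this number limits the precision.

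One limma model (version 3.58.1, R 4.3.3; data read with data.table version 1.17.8) held all 8 groups of line and time, with 7 residual degrees of freedom, and p-values were adjusted by Benjamini-Hochberg over all genes tested. The alternative with the run as a block had 5. Runs were taken as pairing the arrays because same-run arrays of a line deviated together (r of 0.491 to 0.591 over 9 pairs, against 0.276 to 0.390 over 12 pairs across lines). No arrays were duplicates: the highest correlation between 2 arrays was 0.985. The procedure was tested on simulated data. Other settings were median-centred arrays, the deposited scale, no filter and a stricter filter (60th percentile), the mean over probesets, bright probesets only and leaving out each array. The members, gene lists and tests were chosen with earlier results of these data known. The levels of every member are given, but not its difference in every comparison. List genes are named mostly where they passed or were singled out at an unadjusted p under 0.05 after their values were seen. Also named are the 5 genes most correlated with Klf15 and with the member with the lowest 3134 response.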

Additional observations from a re-analysis of the deposited data

Results flagged for a closer look

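One result on the difference between lines was flagged, although it did not pass in the fit without the block. For Klf2 the 3134 response for the mean of 2 and 4 h exceeded the AtT-20 response by 1.20 on the log2 scale (SE 0.38), with a limma adjusted p of 0.394 without and 0.00409 with the run as a block. Every difference within a run was above 0 in 3134 (6 of 6, 0.51 to 1.22) and below 0 in AtT-20 (5 of 5, −0.71 to −0.22). Of all genes, 11.7% were above 0 throughout in 3134 and 9.44% below 0 throughout in AtT-20. The treated arrays of a line share its 0 h arrays, so these signs are not independent. Klf2 started lower in 3134 than in AtT-20, at 6.83 and 6.94, against 7.82 and 8.30. With the mean over probesets as the gene value the difference was 0.54 (adjusted p = 0.558). What lies behind the difference was not tested. No group held 4 or more arrays, so no array could be set apart from its group by a formal rule.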

How the results depend on the processing

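No result changed sign under any setting while it was called. Counts of members called moved as follows. Beside most of these counts, and those with 1 array left out, the share of all genes called is not given. They describe how the calls moved and are no result about the members. With the run as a replicate block the pairing gave 6 at 2 h, 4 at 4 h and 5 for the mean in 3134, 1 at 2 h and 1 at 8 h in AtT-20, 1 for the difference between lines, 3 for 8 h against 2 h, and 2 members with unequally changed probesets (Klf15 and Klf4), and it left no other count over 1.5 times from its value. Median-centred arrays gave 0 in AtT-20 at 4 h and 0 for the mean. On the deposited scale, where the runs differ in level, counts were 0 at 2, 4 and 8 h and for the mean in 3134, 0 at 4 h and for the mean in AtT-20, 2 between lines at 0 h, 0 Klf15 probesets and 0 genes with unequal probesets. On that scale the median of all genes moved by −0.31 at 4 h, −0.37 at 8 h and −0.26 for the mean in 3134, and by −0.21 at 4 h in AtT-20. The deposited scale with the replicate block gave 2, 4 and 5 in 3134 (2 h, 4 h, mean), 1 at 2 h, 1 at 8 h in AtT-20, 1 between responses and 2 with unequal probesets. There 157 of 541 called genes were higher for the 3134 mean, against 178 of 240 in the quantile-normalized fit and 400 of 650 in the blocked one. No filter gave 0 in 3134 at 2 h and 0 in AtT-20 at 4 h. The mean over probesets gave 3 in 3134 at 2 h, 1 in AtT-20 at 2 h and at 8 h, 1 for the difference between lines (Klf10, −0.79, adjusted p = 0.0445) and 3 for 8 h against 2 h. The Klf10 difference between lines comes in part from a probeset too dim to be tested singly. Bright probesets only gave 0 in AtT-20 at 4 h. The stricter filter gave 1 Klf15 probeset and 0 genes with unequal probesets, and a spread for each probeset gave 0.

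Leaving out 1 array gave 0 to 1 members at 2 h, 0 to 2 at 4 h, 1 to 3 at 8 h and 1 to 2 for the mean in 3134. In AtT-20 it gave 0 at 2 h, 0 to 1 at 4 h, 0 at 8 h and 0 to 1 for the mean. It gave 0 for the difference between lines and for 8 h against 2 h, 6 to 9 between lines at 0 h, 0 to 2 Klf15 probesets and 0 to 1 members with unequal probesets. Of 847 values under the other settings, 778 stayed on their side of the threshold with their direction or within 1.5 times, 28 lost a call or fell and 41 gained one or grew. Precision is limited by the number of arrays, and 3134 levels of Klf12 and of Klf15 probeset 4337002 at 0 h lie low on the scale, where a fall could not be seen.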
